A study of Mus musculus with 8 samples.

Results

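The genes of glycolysis and of the response to low oxygen were compared between macrophages of wild-type (WT) and Gsdmd-/- mice. The set holds 33 genes, chosen by name for their known function in glucose breakdown or in the hypoxia response, and every row of the count table that carried one of these symbols was used. This gave 34 of 54532 rows, because Aldoa had 2 rows. The comparison asks whether the higher Vegfa level of the Gsdmd-/- cells came with a hypoxia response.

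RNA was sequenced from bone marrow macrophages that had been differentiated for 6 days with macrophage colony-stimulating factor and had received no treatment. There were 4 WT and 4 Gsdmd-/- libraries, and genotype was the only difference that the labels gave. Bone marrow donors were females of 6 to 8 weeks, and no other age or sex is given for the Gsdmd-/- mice. WT mice were C57BL/6J animals that had been bought. The Gsdmd-/- line, a knockout of the gene for the pore-forming protein gasdermin D, was received as a gift and kept in the authors' animal facility. Nothing says that the genotypes were littermates, so genotype and colony cannot be told apart. The sources used here do not say whether the libraries of a genotype came from separate mice, and p-values therefore measure only the spread between these libraries. The oxygen level of the culture is not given in the sources used here.

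Glycolysis turns glucose into pyruvate in the cytosol and yields ATP without oxygen, and the pyruvate is then burned in mitochondria or reduced to lactate and exported. When oxygen is plentiful, prolyl hydroxylases of the EGLN family mark the alpha subunits of hypoxia-inducible factor (HIF) for destruction. When oxygen falls, or when macrophages are activated by microbial products, the alpha subunits persist, pair with ARNT and bind a short core, ACGTG or GCGTG, near genes for glucose uptake, glycolytic enzymes, lactate export and Vegfa. HIF alpha is controlled mainly at the protein level, so its transcript alone does not report its activity.

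The 8 libraries held 14935114 to 16794810 counts, and the members took 0.803 to 0.920% of them. Gsdmd itself had 1039 to 1570 counts in the WT libraries and 241 to 307 in the Gsdmd-/- libraries, a log2 fold change of -2.22 (SE 0.14, edgeR adjusted p = 4.67e-05), so the targeted gene was lower in every library labelled Gsdmd-/-. Which part of the gene is deleted is not given in the sources used here. All 12 macrophage markers passed the filter on low counts, with a summed level of 16340 to 24480 CPM (counts scaled to the size of the library) in WT and 20260 to 24240 CPM in Gsdmd-/-. Of 10 neutrophil markers, Ly6g and Retnlg were at 0 in every library, while S100a8 had 70 to 109 counts and Cxcr2 8 to 21, and the other 6 had at most 5. The erythroid markers Hbb-bs, Hba-a1 and Hba-a2 were at 0 in every library, and Hbb-bt and Klf1 had at most 6 counts. WT 2 and WT 3 stood apart on the first principal component, which held 43.6% of the variance, with scores of 45.4 and 38.8 against -25.9 to -7.19 in the other 6 libraries. Without these libraries the sign of the log2 fold change turned in 6 of the 30 members tested (Tpi1, P4ha1, Pdk1, Epas1, Pfkm and P4ha2), and results that rest on them are given with and without them. In bulk RNA, fewer cells of a type and less RNA per cell cannot be told apart.

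The stretch before the start site is shown for 4 members, so that the HIF core can be read in them: the 3 members whose libraries did not overlap between the genotypes (Bnip3, Slc16a3 and Eno2) and Pfkfb4, which passed an unadjusted p under 0.05 as lower. Each sequence is the 250 bases before the RefSeq start (build GRCm38.p6), written 5′ to 3′ on the strand of the gene, with every ACGTG or GCGTG on either strand in capitals. They lie at chr7:138909507-138909756 (minus strand), chr11:120948817-120949066 (plus strand), chr9:108991652-108991901 (plus strand) and chr6:124769674-124769923 (minus strand).
Bnip3: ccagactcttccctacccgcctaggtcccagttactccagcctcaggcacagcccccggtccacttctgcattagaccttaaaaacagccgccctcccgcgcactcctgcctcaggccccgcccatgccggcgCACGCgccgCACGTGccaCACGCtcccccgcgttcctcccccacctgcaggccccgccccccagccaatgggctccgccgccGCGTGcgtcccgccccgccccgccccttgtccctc
Slc16a3: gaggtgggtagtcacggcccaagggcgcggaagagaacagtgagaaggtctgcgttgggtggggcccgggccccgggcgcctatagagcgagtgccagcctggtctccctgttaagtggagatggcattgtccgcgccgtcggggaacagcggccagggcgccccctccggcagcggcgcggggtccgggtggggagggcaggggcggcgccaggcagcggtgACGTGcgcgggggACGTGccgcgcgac
Pfkfb4: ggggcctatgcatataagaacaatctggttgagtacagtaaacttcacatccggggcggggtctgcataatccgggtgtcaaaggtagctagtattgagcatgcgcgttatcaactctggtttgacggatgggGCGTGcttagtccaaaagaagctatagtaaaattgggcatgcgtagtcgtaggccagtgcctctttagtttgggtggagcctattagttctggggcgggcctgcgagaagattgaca
Eno2: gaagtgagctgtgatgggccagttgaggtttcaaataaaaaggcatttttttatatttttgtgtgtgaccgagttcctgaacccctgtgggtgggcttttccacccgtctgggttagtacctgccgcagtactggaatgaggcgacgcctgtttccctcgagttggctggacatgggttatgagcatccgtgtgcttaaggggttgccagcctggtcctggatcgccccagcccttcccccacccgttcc

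The Bnip3 window held 5 cores, the Slc16a3 window 2 and the Pfkfb4 window 1, whereas no such letters were found in the Eno2 window. Cores were counted on each strand, so the stretch CACGTG in the Bnip3 window, which reads the same on both strands, counts as 2. Over the set, 28 of the 31 members with a RefSeq window (90.3%) had a core in at least 1 window of 300 bases, from 250 before to 50 after the start, compared with 46.7% of all 27025 genes with a window. The 3 members without a match in this window were Eno2, Gpi1 and Tpi1. The members were chosen for their known function, and the 27025 genes include those not expressed in these cells. The 2 shares were not matched for expression, base composition or windows per gene (44 windows for 31 members, 32851 for all genes). The difference between them was not tested. A match is a description of the letters and not a measured binding site.

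Of the 34 rows, 30 passed the filter on low counts and were tested together with all other genes, 12911 in total. None of the 30 passed an adjusted p of 0.05 in edgeR's quasi-likelihood test, where 0.349% of all genes did (0.139% as higher in Gsdmd-/- and 0.209% as lower). The lowest adjusted p among the members was 0.143, for Eno2. At an unadjusted p under 0.05, 6 members (20%) passed against 12.0% of all genes, with 3 higher (Eno2, Bnip3 and Pgam1) and 3 lower (Slc16a3, Pfkfb4 and Ndrg1) in Gsdmd-/-. DESeq2 and edgeR's exact test each called 1 member at an adjusted p under 0.05, Eno2 as higher, where they called 0.813% and 0.713% of all genes as higher and 1.45% and 1.19% as lower, and limma voom called 0 members. The study's own cutoff, which joins an unadjusted p under 0.05 to a log2 fold change no smaller than 0.5 in size, took 2 members (6.67%) and 4.83% of all genes. Eno2 was the 1 member taken as higher, as were 1.54% of all genes, and Ndrg1 the 1 taken as lower, as were 3.28%. No overlap between the libraries of the 2 genotypes was seen in 3 members (10%, against 7.60% of all genes). These were Eno2 and Bnip3, higher in Gsdmd-/- as were 3.48% of all genes, and Slc16a3, lower as were 4.12%.

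The members as a whole had a median log2 fold change of -0.04, compared with -0.01 over all genes tested, and the single values ran from -0.59 to 0.69. There were 11 members above 0 (36.7%, against 48.5% of all genes tested) and 19 below, and 13 above and 17 below without WT 2 and WT 3. In 27 of 30 members (90%) the log2 fold change was smaller than 0.5 in size, and the same was true of 90.7% of all genes. The 95% interval of the fold change lay inside 0.5 on the log2 scale on either side for 21 members, and inside 1 for 26. It reached past 1 only for Eno2, Ndrg1, P4ha2 and Ddit4 among the 30 members tested.

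**Figure D1:**
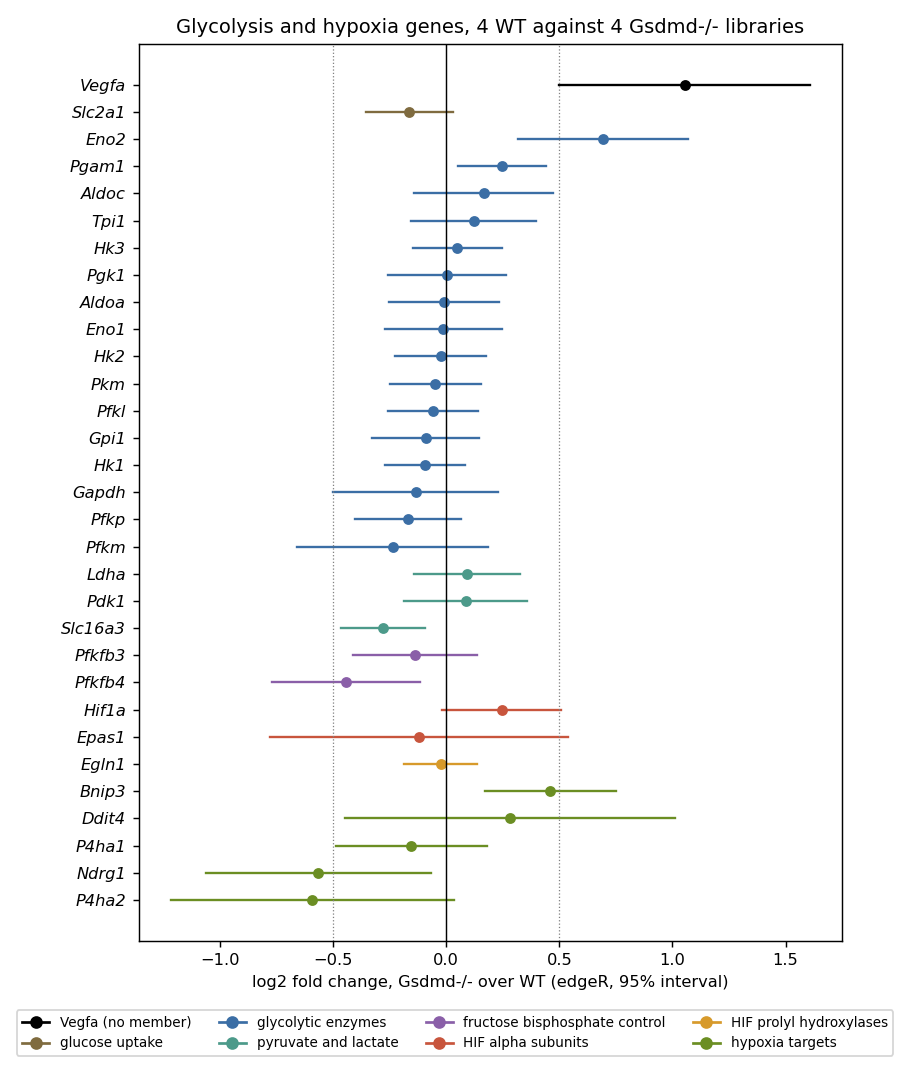
Log2 fold change of each of the 30 members tested and of Vegfa (x axis, Gsdmd-/- over WT, with 95% intervals from edgeR), one gene per line, coloured by role; dotted lines mark 0.5 on either side of 0. Most members lie close to 0, Eno2 is highest at 0.69 and P4ha2 lowest at -0.59, while Vegfa sits at 1.05.

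Glucose enters these cells through facilitative transporters, of which Slc2a1 (GLUT1) is the member and a common HIF target. Slc2a1 stood at 156, 188, 189 and 178 CPM in WT 1 to WT 4 and at 157, 148, 170 and 159 CPM in Gsdmd-/- 1 to 4. The WT libraries were mostly the higher ones, but the groups overlapped. Its log2 fold change was -0.16 (SE 0.09, edgeR adjusted p = 0.507), and -0.07 without WT 2 and WT 3.

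For the enzymes of the pathway itself, 16 of 17 rows were tested, 0 passed an adjusted p of 0.05 in edgeR's quasi-likelihood test, 2 (Eno2 and Pgam1) had an unadjusted p under 0.05, a share close to the 12.0% of all genes, and the median log2 fold change was -0.02. Compared per length, in CPM per kb of annotated exon, Aldoa, the aldolase that splits fructose bisphosphate, was the highest member at 498 ± 52.3 in WT and 494 ± 53.5 in Gsdmd-/- (SD, n = 4 each). It was followed by Pkm, the pyruvate kinase, at 423 ± 32.9 and 409 ± 25.4, and by Pgam1, the phosphoglycerate mutase, at 278 ± 18.0 and 330 ± 24.7. The median tested member had 12.5 CPM per kb in WT, compared with 4.73 over all genes tested, and the enzyme genes Gapdh, Pfkm and Eno2 lay below that, at 3.61, 2.31 and 1.73. The lowest tested member per length was P4ha2, at 0.821 ± 0.337 in WT and 0.544 ± 0.0671 in Gsdmd-/-.

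**Figure D2:**
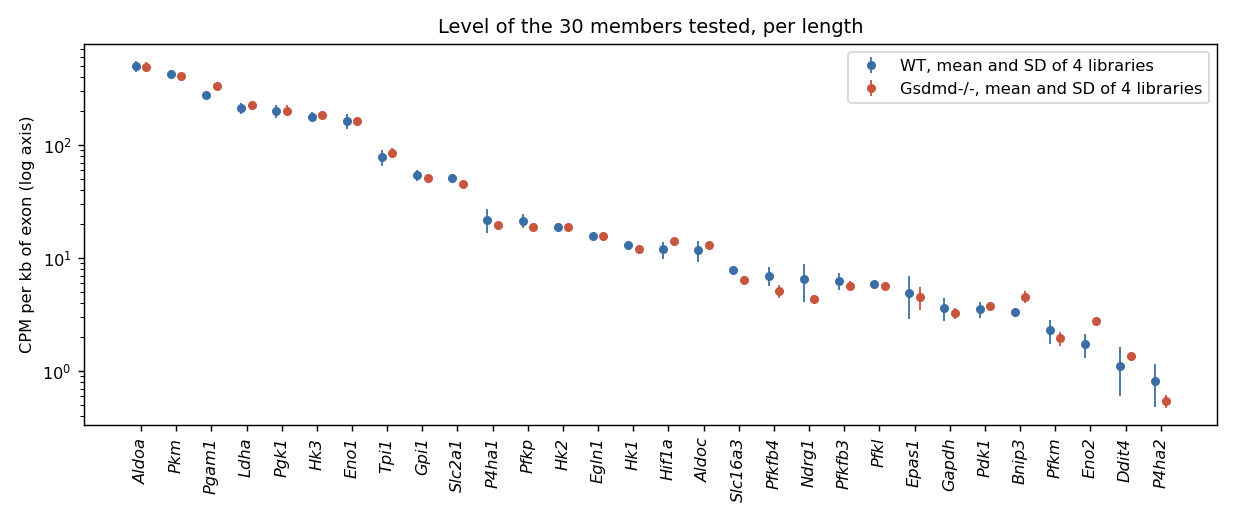
Level of the 30 members tested in CPM per kb of exon on a log axis, ordered by the WT mean; points are means and bars the SD of 4 libraries for WT (blue) and Gsdmd-/- (red). Aldoa is highest at 498 in WT and P4ha2 lowest at 0.821, and the paired points lie close together for most members.

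Aldoa stood at 1320, 1351, 1474 and 1655 CPM in the WT libraries and at 1431, 1266, 1645 and 1415 CPM in the Gsdmd-/- libraries. The ranges covered each other almost fully, and its log2 fold change was -0.01 (SE 0.11, edgeR adjusted p = 0.981), a value whose sign turned under 4 of 17 alternatives. The second Aldoa row, which lies just beside the first on chromosome 7, had 0 to 5 counts per library and was not tested. The hexokinases trap glucose in the cell, Gpi1 and the phosphofructokinases prepare it for splitting, Tpi1 interconverts the triose products, and Gapdh and Pgk1 carry out the steps that first yield NADH and ATP. Log2 fold changes of Pgk1, Eno1, Hk2, Hk3, Pkm, Pfkl, Gpi1 and Hk1 lay between -0.09 and 0.05. Without WT 2 and WT 3 these genes lay between -0.15 (Eno1) and 0.17 (Hk3). With all libraries, the log2 fold changes of Tpi1, Aldoc, Gapdh, Pfkp and Pfkm were 0.12, 0.17, -0.14, -0.17 and -0.24, with edgeR adjusted p from 0.574 to 0.788. Without WT 2 and WT 3 they were -0.02, 0.45, -0.36, -0.34 and 0.05, with adjusted p from 0.0802 to 0.978.

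Eno2 encodes the gamma isoform of enolase, best known from neurons, and catalyses the same step as the far more abundant Eno1. The gene lies at chr6:124760053-124769673 (mm10). Its level was 7.79, 10.6, 8.49 and 5.72 CPM in WT 1 to WT 4 and 13.2, 13.6, 13.6 and 12.3 CPM in Gsdmd-/- 1 to 4. Every Gsdmd-/- library lay above every WT library, and the Gsdmd-/- values were closely grouped at 13.2 ± 0.621 CPM, compared with 8.14 ± 2.0 CPM in WT (SD, n = 4). Eno2 had a log2 fold change of 0.69 (SE 0.17), with an edgeR adjusted p of 0.143 and an exact two-sided permutation p of 0.0286, the smallest that 4 against 4 libraries allow. Without WT 2 and WT 3, with WT 1 and WT 4 left, the log2 fold change was 0.96 with an edgeR adjusted p of 0.0230. In that fit 0.399% of all genes were called as higher. Over 17 alternatives the adjusted p of Eno2 ran from 0.0149 to 0.393. As a share of all enolase transcript per length, Eno2 was 1.09 ± 0.403% in WT and 1.71 ± 0.176% in Gsdmd-/- (SD, n = 4; exact permutation p = 0.0857, 0.3 after adjustment over 7 families), and the groups overlapped. Only 0.197% of its 50-base windows occurred in another annotated gene.

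Pgam1, named here after its values were seen, stood at 601, 516, 541 and 548 CPM in WT and at 628, 598, 692 and 698 CPM in Gsdmd-/-. Gsdmd-/- libraries were higher apart from a small overlap between WT 1 and Gsdmd-/- 2. Pgam1 had a log2 fold change of 0.25 (SE 0.09, edgeR adjusted p = 0.310). Its unadjusted edgeR p of 0.0181 rose to 0.0997 without WT 2 and WT 3 together (log2 fold change 0.18), to 0.0576 without WT 2 (0.21) and to 0.0627 without Gsdmd-/- 4 (0.21). Of its 50-base windows, 41.5% also occurred in 4 annotated pseudogenes, so this level is uncertain where reads could be split. The same holds for Pgk1 (68.0%), Eno1 (49.5%) and Gapdh (58.4%). Gapdh, usually among the most abundant transcripts of a cell, had only 11.7 to 19.4 CPM here, while the 222 other annotated genes that share its windows held 1511 to 2080 counts per library against 192 to 319 for Gapdh itself. The treatment of reads that match several places is not given in the sources used here, and Gapdh is read as uncertain.

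Several steps are carried by sister enzymes with different regulation, and their shares within each family were compared per length. Hk3, the hexokinase typical of myeloid cells, made up 84.7 ± 1.44% of hexokinase transcript in WT and 85.6 ± 0.995% in Gsdmd-/- (SD, n = 4), while Hk2, the inducible hexokinase, made up 9.13 ± 1.29% and 8.71 ± 0.765%. Pfkp was the main phosphofructokinase, at 72.0 ± 4.59% and 71.5 ± 2.11%. Neither Hk3 nor Pfkp differed beyond the spread of the libraries (exact permutation p = 0.371 and 0.857). Over the 7 families compared, the lowest adjusted p of this exact test was 0.3, reached for the enolases and for the collagen prolyl hydroxylases.

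**Figure D3:**
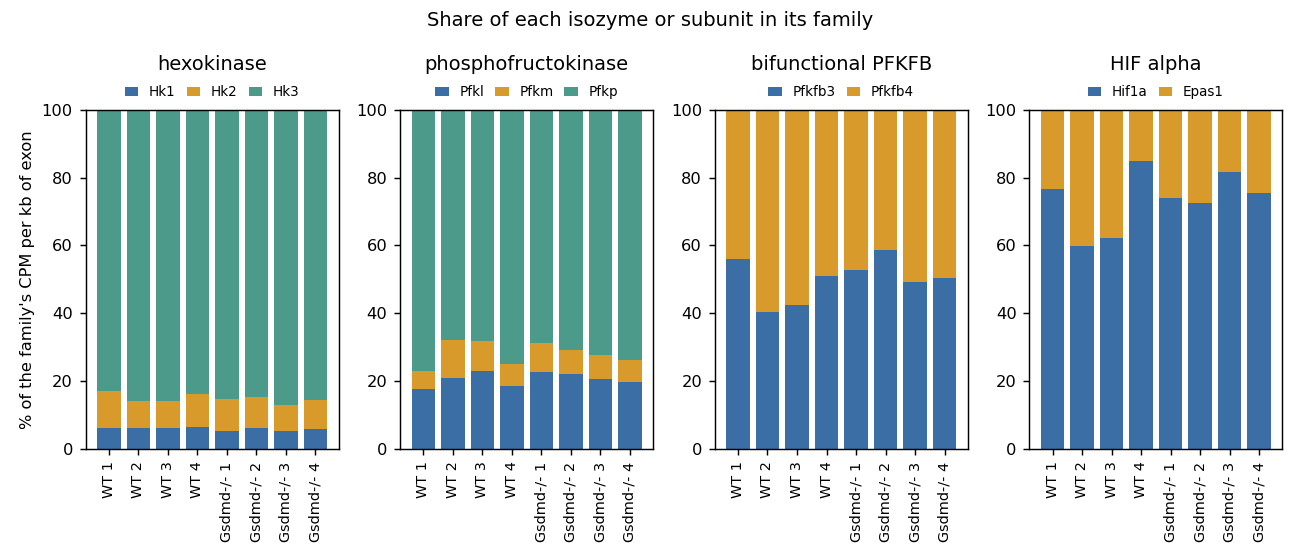
Share of each isozyme or subunit in its family (y axis, percent of the family's CPM per kb of exon) in each of the 8 libraries, for hexokinases, phosphofructokinases, the bifunctional PFKFB enzymes and the HIF alpha subunits. Hk3 and Pfkp dominate in every library, and WT 2 and WT 3 have the highest Pfkfb4 and Epas1 shares, 57.7 to 59.5% and 37.9 to 40.2%.

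At the end of the pathway, Ldha reduces pyruvate to lactate, Slc16a3 (MCT4) exports lactate, and Pdk1 keeps pyruvate out of the mitochondria by phosphorylating pyruvate dehydrogenase. Ldha ranged from 622 to 810 CPM in WT and from 693 to 848 CPM in Gsdmd-/-, a log2 fold change of 0.09 (SE 0.10). Slc16a3, at chr11:120948480-120960868, stood at 39.7, 41.1, 42.9 and 42.1 CPM in the WT libraries and at 33.5, 31.1, 37.2 and 34.7 CPM in the Gsdmd-/- libraries. All Gsdmd-/- libraries lay below all WT libraries, although the difference was small. For Slc16a3 the log2 fold change was -0.28 (SE 0.08, edgeR adjusted p = 0.233, exact permutation p = 0.0286), and -0.26 without WT 2 and WT 3, with an adjusted p between 0.0733 and 0.532 over 17 alternatives. Its window, printed above, held 2 ACGTG cores. Pdk1, a direct HIF-1 target, was 33.2, 25.1, 23.2 and 28.9 CPM in WT and 29.0, 31.9, 29.9 and 26.3 CPM in Gsdmd-/-. The groups overlapped, and the log2 fold change of 0.09 (SE 0.12, edgeR adjusted p = 0.826) became -0.09 without WT 2 and WT 3.

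The PFKFB enzymes make and break fructose 2,6-bisphosphate, the signal that speeds up phosphofructokinase. Pfkfb3, the isoform with the strongest kinase activity, was 59.5, 43.7, 42.5 and 44.4 CPM in WT and 41.6, 46.8, 38.4 and 46.1 CPM in Gsdmd-/-. WT 1 stood above the other 7 libraries, which overlapped, and the log2 fold change was -0.14 (SE 0.12, edgeR adjusted p = 0.711), or -0.01 without WT 1 and -0.27 without WT 2 and WT 3. Pfkfb4, at chr9:108991778-109032228 and named here after its values were seen, stood at 30, 41.3, 37.4 and 27.5 CPM in WT and at 24.1, 21.4, 25.4 and 29.3 CPM in Gsdmd-/-. Its highest values were in WT 2 and WT 3, and Gsdmd-/- 4 lay inside the WT range. For Pfkfb4 the log2 fold change was -0.44 (SE 0.15, edgeR adjusted p = 0.279), and -0.20 without WT 2 and WT 3.

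Of the HIF alpha subunits, Hif1a is the form induced in inflammatory macrophages and Epas1 encodes HIF-2 alpha. Hif1a stood at 83.9, 61.9, 58.7 and 77.9 CPM in the WT libraries and at 80.7, 88.3, 83.4 and 82.1 CPM in the Gsdmd-/- libraries. The low values were those of WT 2 and WT 3, while WT 1 and WT 4 lay within or just below the Gsdmd-/- range. The log2 fold change was 0.24 (SE 0.12, edgeR adjusted p = 0.457), and 0.05 without those 2 libraries. Epas1, taken up after its values were seen, ranged from 13.2 to 39.4 CPM in WT and from 17.8 to 31.9 CPM in Gsdmd-/-, with its highest WT values in WT 2 and WT 3, and its log2 fold change of -0.12 (SE 0.30, edgeR adjusted p = 0.907) turned to 0.45 (adjusted p = 0.548) without them. Egln1, the main oxygen-sensing prolyl hydroxylase, was 55.8 to 58.4 CPM in WT and 53.3 to 60.0 CPM in Gsdmd-/-, a log2 fold change of -0.02 (SE 0.07).

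Egln3, the prolyl hydroxylase that is itself strongly induced by HIF, was too low to test. It had 12, 0, 1 and 10 counts in WT 1 to WT 4 and 10, 14, 4 and 12 counts in Gsdmd-/- 1 to 4, with the lowest counts in WT 2 and WT 3. Ankrd37, a small HIF-induced ankyrin protein, had 5, 8, 5 and 2 counts in WT and 10, 8, 8 and 4 in Gsdmd-/-. Adm, which encodes the vasodilator peptide adrenomedullin, had 0, 2, 2 and 2 counts in WT and 1, 0, 1 and 0 in Gsdmd-/-, at or below the limit of 3 counts that a count of 0 allows (0.179 to 0.201 CPM, counting error only). A difference in Adm was not detectable at this depth.

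Bnip3, a mitochondrial outer membrane protein that marks mitochondria for removal in hypoxia, was the 1 of the 5 tested hypoxia targets among the members whose libraries did not overlap between the genotypes. The gene lies at chr7:138890836-138909519. It stood at 7.36, 8.31, 7.51 and 6.82 CPM in WT 1 to WT 4 and at 8.71, 10.9, 10.2 and 11.5 CPM in Gsdmd-/- 1 to 4. All 4 Gsdmd-/- libraries lay above all WT libraries, as in 3.48% of all genes, with the smallest gap between WT 2 and Gsdmd-/- 1. Bnip3 had a log2 fold change of 0.46 (SE 0.13, edgeR adjusted p = 0.214, exact permutation p = 0.0286), and 0.54 with an adjusted p of 0.156 without WT 2 and WT 3, within a range of 0.0931 to 0.490 over 17 alternatives. Of its 50-base windows, 59.1% also occurred in 6 other annotated genes, which held 0 to 6 counts per library, so its level is uncertain in that respect.

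The other 4 tested hypoxia targets overlapped between the genotypes. Ndrg1, a stress-responsive gene of differentiation at chr15:66929318-66969640, stood at 30.4, 56.7, 56.1 and 28.4 CPM in WT and at 31.2, 25.7, 29.2 and 29.9 CPM in Gsdmd-/-. Only WT 2 and WT 3 were high, and WT 1 and WT 4 lay among the Gsdmd-/- libraries. The log2 fold change was -0.57 (SE 0.22, edgeR adjusted p = 0.358), and -0.02 without WT 2 and WT 3. Ndrg1 also left the study's cutoff when WT 2, WT 3, Gsdmd-/- 2, Gsdmd-/- 3 or Gsdmd-/- 4 alone was left out, and no member was then at the cutoff as lower apart from Pfkfb4 without Gsdmd-/- 4.

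P4ha1 and P4ha2 encode catalytic subunits of the enzyme that hydroxylates proline in collagen. P4ha2 was 3.29, 6.66, 7.21 and 3.35 CPM in WT and 3.55, 3.84, 2.85 and 3.32 CPM in Gsdmd-/-, and P4ha1, taken up after its values were seen, ranged from 67.0 to 108 CPM in WT and from 73.8 to 83.8 CPM in Gsdmd-/-. In both genes the high values were WT 2 and WT 3 alone. P4ha1 had a log2 fold change of -0.15 (SE 0.15, edgeR adjusted p = 0.737), which turned to 0.16 (adjusted p = 0.587) without these libraries. The log2 fold change of P4ha2 was -0.59 (SE 0.28, edgeR adjusted p = 0.449), and 0.03 without these libraries. Ddit4, an inhibitor of mTORC1 that is induced by low oxygen and by other stresses, was 0.852, 2.44, 2.93 and 1.64 CPM in WT and 2.43, 2.60, 2.22 and 2.32 CPM in Gsdmd-/-. The 2 lowest values were WT 1 and WT 4, and the log2 fold change was 0.28 (SE 0.33, edgeR adjusted p = 0.779). It ran from 0.03 to 0.54 with single libraries left out, and was 0.94 with an edgeR adjusted p of 0.208 without WT 2 and WT 3.

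**Figure D4:**
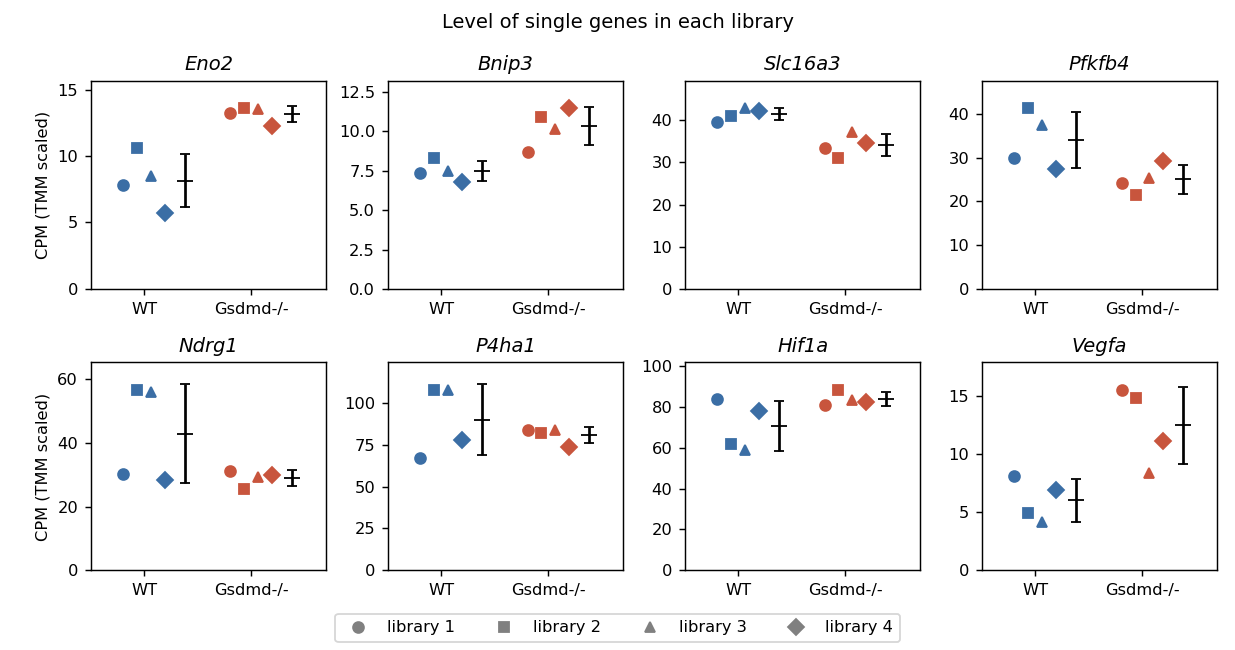
CPM of 7 members and Vegfa in each library (y axis from 0; blue WT, red Gsdmd-/-; the symbol gives the library number; black bars are the mean and SD of 4 libraries). Eno2, Bnip3 and Slc16a3 do not overlap between the genotypes, Ndrg1 and P4ha1 are high only in WT 2 and WT 3, and these 2 libraries are the lowest for Hif1a and Vegfa.

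The 5 tested hypoxia targets among the members, Bnip3, Ddit4, Ndrg1, P4ha1 and P4ha2, had both WT 2 and WT 3 above both WT 1 and WT 4, as had 14 of the 30 members tested (46.7%) and 29.4% of all genes tested. Of 24 further tested genes of the HIF pathway 9 had both above (37.5%), 7 both below (29.2%) and 8 neither. The mean of WT 2 and WT 3 over that of WT 1 and WT 4 was 2.15 for Ddit4, 2.09 for P4ha2, 1.92 for Ndrg1, 1.49 for P4ha1 and 1.12 for Bnip3. Both libraries lay below the other WT libraries in 8 members (26.7%, against 28.7% of all genes), among them Hif1a, Pdk1, Pfkfb3 and Gapdh. Of the 12 macrophage markers, 9 had both WT 2 and WT 3 below WT 1 and WT 4, and 3 (Mrc1, Adgre1 and Mertk) had both above. The complement gene C1qa was 4.46 and 6.66 CPM in WT 2 and WT 3 but 44.9 and 77.6 CPM in WT 1 and WT 4, while Mertk, a receptor for the uptake of dead cells, had a mean in WT 2 and WT 3 that was 1.91 times that of WT 1 and WT 4. Of the 6 dendritic cell markers 2 were tested. The lectin gene Clec9a was 49.1 and 45.3 CPM in WT 2 and WT 3 against 16.98 and 17.65 CPM, whereas Zbtb46 showed no such split. Over the 6 genes the list summed to 19.5 to 51.9 CPM in WT and 16.6 to 20.4 CPM in Gsdmd-/-, and Siglech was at 0. Of the endothelial markers, Vwf was 238 and 201 CPM in WT 2 and WT 3 against 113 and 81.2 CPM in WT 1 and WT 4, whereas Kdr, a receptor for VEGF, was 23.7 and 21.1 CPM against 65.6 and 54.8 CPM, with 44.2 to 77.8 CPM in Gsdmd-/-. The part of these markers in the hypoxia target levels was not tested.

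The mean log2 CPM per library summarised the members. Over the 30 members tested it was 6.21, 6.37, 6.40 and 6.25 in WT 1 to WT 4 and 6.31, 6.26, 6.31 and 6.30 in Gsdmd-/- 1 to 4. The Gsdmd-/- libraries lay inside the WT range, with means of 6.31 ± 0.09 in WT and 6.30 ± 0.02 in Gsdmd-/- (SD, n = 4) and a difference of -0.01. The 16 glycolytic enzyme genes had means of 7.31 ± 0.05 in WT and 7.34 ± 0.06 in Gsdmd-/-, a difference of 0.03 on the log2 scale. Gsdmd-/- 1 and Gsdmd-/- 3 (7.373 and 7.385) lay above the highest WT library, WT 3 (7.353), and the groups overlapped. For the 5 tested hypoxia targets the mean was 3.13, 3.956, 3.996 and 3.31 in the WT libraries and 3.55, 3.59, 3.48 and 3.54 in the Gsdmd-/- libraries. The Gsdmd-/- libraries were tightly grouped between the low WT 1 and WT 4 and the high WT 2 and WT 3, and the difference was -0.05 with all libraries and 0.32 without WT 2 and WT 3. These means are given as a description and without a test.

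Vegfa, the endothelial growth factor and a HIF target, is not a member but sets the question. It stood at 8.10, 4.89, 4.15 and 6.88 CPM in WT 1 to WT 4 and at 15.5, 14.8, 8.37 and 11.1 CPM in Gsdmd-/- 1 to 4. All Gsdmd-/- libraries lay above all WT libraries, as in 3.48% of all genes, narrowly so for WT 1 and Gsdmd-/- 3. The log2 fold change was 1.05 (SE 0.25, edgeR adjusted p = 0.132, exact permutation p = 0.0286). It was 0.73 with an adjusted p of 0.224 without WT 2 and WT 3, and over 17 alternatives the adjusted p ran from 0.00664 to 0.399. Within WT, the libraries with the lowest Vegfa level, WT 2 and WT 3, were those with the highest mean over the hypoxia targets. Neither Vegfa nor any member passed an adjusted p of 0.05 in edgeR's quasi-likelihood test. Without WT 2 and WT 3, the difference was 0.73 for Vegfa and 0.32 for the mean of the tested hypoxia targets, both higher in Gsdmd-/- on the log2 scale, and the latter was not tested. That mean rested on Ddit4 (0.94, from 14 and 27 counts in WT 1 and WT 4), Bnip3 (0.54) and P4ha1 (0.16), whereas Ndrg1 was at -0.02 and P4ha2 at 0.03.

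**Figure D5:**
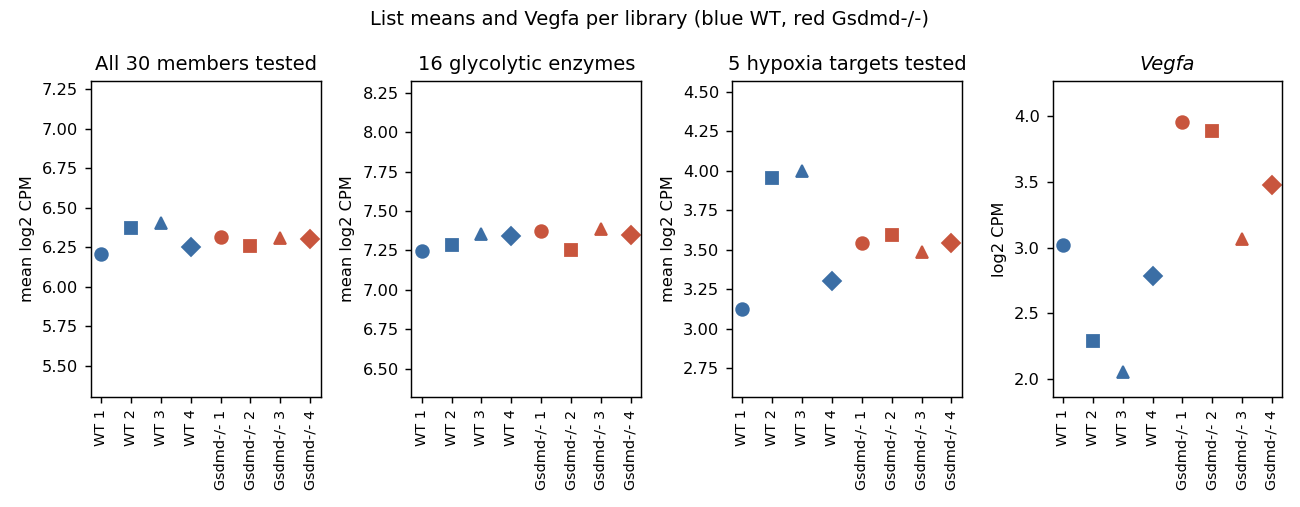
Mean log2 CPM per library over all 30 members tested, the 16 glycolytic enzyme genes and the 5 tested hypoxia targets, beside log2 CPM of Vegfa (blue WT, red Gsdmd-/-; each panel has its own y axis). The Gsdmd-/- libraries lie within the WT range for all members and for the hypoxia targets, where WT 2 and WT 3 are highest at 3.956 and 3.996, and above it for Vegfa. For the glycolytic enzymes, Gsdmd-/- 1 and Gsdmd-/- 3 (7.373 and 7.385) lie above the highest WT library (7.353).

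Other genes of these pathways, taken from lists of known function, were read in the same fit. Of 26 further glycolysis and pyruvate genes 20 were tested, 0 passed an adjusted p of 0.05 and 0 reached the study's cutoff, while 1 passed an unadjusted p under 0.05 (12.0% of all genes did). That gene was Mpc1, a subunit of the mitochondrial pyruvate carrier, named after its values were seen. It stood at 22.4 to 24.0 CPM in WT and at 27.1 to 30.8 CPM in Gsdmd-/-. The groups did not overlap, as in 3.48% of all genes in that direction (log2 fold change 0.30, SE 0.09, edgeR adjusted p = 0.214). All 7 pentose phosphate genes were tested, 0 passed either threshold, 0 had an unadjusted p under 0.05 and their log2 fold changes lay between -0.06 and 0.13. The median log2 fold change was 0.03 in the first list and -0.01 in the second.

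Of 30 further genes of the HIF pathway, 24 were tested and 0 passed an adjusted p of 0.05 in edgeR's quasi-likelihood test. Of these 24, 5 had an unadjusted p under 0.05 (12.0% of all genes did). Vegfa, Bnip3l and Cited2 were higher in Gsdmd-/-, and Angptl4 and Ak4 were lower. Cited2, named after its values were seen, overlapped between the genotypes and had a log2 fold change of 0.26 (SE 0.11, edgeR adjusted p = 0.389). Its lowest libraries were WT 2 and WT 3, at 35.7 and 38.8 CPM. At the study's cutoff, Vegfa was the 1 of the 24 taken as higher (1.54% of all genes). Of the 24, 2 genes, Angptl4 and Ak4, were taken as lower (3.28% of all genes). Angptl4, an inhibitor of lipoprotein lipase, stood at 1.40, 11.0, 13.4 and 2.01 CPM in WT and at 1.54, 1.95, 1.59 and 1.92 CPM in Gsdmd-/-. Ak4, a mitochondrial adenylate kinase, stood at 2.25, 5.99, 6.90 and 2.92 CPM in WT and at 2.90, 2.60, 2.66 and 2.12 CPM in Gsdmd-/-. In both genes WT 2 and WT 3 alone were high, and the log2 fold changes of -1.99 (SE 0.65, edgeR adjusted p = 0.272) and -0.81 (SE 0.34, adjusted p = 0.388) became 0.04 and -0.01 without them. Bnip3l, the sister gene of Bnip3 in mitochondrial removal, named after its values were seen, stood at 167, 206, 210 and 169 CPM in WT and at 235, 240, 243 and 224 CPM in Gsdmd-/-. Its groups did not overlap, as in 3.48% of all genes in that direction, and its log2 fold change was 0.33 (SE 0.10, edgeR adjusted p = 0.235). Without WT 2 and WT 3, with WT 1 and WT 4 left, it was 0.49 with an edgeR adjusted p of 0.0334. Over 17 alternatives the adjusted p of Bnip3l ran from 0.0334 to 0.523. Car9, a carbonic anhydrase and a widely used hypoxia marker, was 4.34 to 6.63 CPM in WT and 4.25 to 6.22 CPM in Gsdmd-/-, and the log2 fold change was -0.09 (SE 0.19).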

How the data were processed

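RNA of 4 WT and 4 Gsdmd-/- macrophage libraries had been extracted with Trizol and made into libraries with an Illumina TruSeq kit. The authors deposited 1 table of whole-number read counts per gene, 54532 genes by 8 libraries, and per the labels the build was mm10. The aligner, the counter, the annotation and the strand setting are not given in the sources used here. Coordinates and exon lengths were taken from GENCODE M21, which held 54495 of the genes. Counts were scaled by TMM factors and tested with edgeR 4.0.16 in R 4.3.3 (quasi-likelihood test, two-sided, genotype as the only term, filterByExpr, Benjamini-Hochberg over all 12911 genes tested). CPM are TMM scaled, and mean log2 CPM used a prior count of 2. Single genes and isozyme shares were also compared by an exact permutation test over the 8 libraries. Alternatives were limma 3.58.1 (voom), DESeq2 1.42.0, edgeR's exact test, other size factors, other filters, a replicate term and libraries left out. The code was tested on simulated counts.

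The members, gene lists and tests were chosen with earlier results of these data known. Values in every library are given for members that passed a threshold or did not overlap, for named hypoxia readouts (Hif1a, Slc2a1, Pdk1, Bnip3, Ankrd37, Adm, Egln3, Pfkfb3 and Ddit4), for the highest and lowest member per length, and for Vegfa and other pathway genes that reached the study's cutoff. Genes outside this rule are named as such. Replicate libraries of a genotype differed by more than sampling noise (chi-square per degree of freedom of 5.87 to 80.2). The remaining marker lists summed to 5.36 to 7.94 CPM in WT and 6.93 to 7.69 CPM in Gsdmd-/- for neutrophils, 5.01 to 9.62 and 7.33 to 9.16 CPM for mast cells and basophils, 142 to 267 and 133 to 212 CPM for endothelial cells (mostly Vwf and Kdr, with Tek at 0), 0.794 to 2.86 and 1.01 to 1.40 CPM for stromal cells, and at most 0.609 CPM for lymphocytes.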

Additional observations from a re-analysis of the deposited data

Results flagged for a closer look

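Among 80 groups of 4 libraries, 3 held a library whose distance to its nearest neighbour took up an unusually large part of the group's range, and chance marks about 1 in 20 groups in this way. Pfkfb3 was 59.5 CPM in WT 1, compared with 42.5 to 44.4 CPM in the other WT libraries. P4ha1 was 73.8 CPM in Gsdmd-/- 4, compared with 82.2 to 83.8 CPM in the other Gsdmd-/- libraries. Pfkm, the muscle-type phosphofructokinase, was 7.94 CPM in Gsdmd-/- 1, compared with 5.97 to 6.15 CPM in the other Gsdmd-/- libraries.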

How the results depend on the processing

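Across all genes, the calls at an adjusted p under 0.05 (18 higher and 27 lower) were 105 and 187 with DESeq2, 92 and 154 with edgeR's exact test, 44 and 65 without the low-count filter, 53 and 108 without WT 2 and WT 3 together, and 8 to 28 and 5 to 56 when single libraries were left out. At the study's cutoff (199 and 424) they were 421 and 783 without the filter, 59 and 140 at a log2 fold change of 1, 155 to 318 and 297 to 704 with single libraries left out, and 405 higher without WT 2 and WT 3. Among members, the 1 gene called by adjusted p with DESeq2, with the exact test and without WT 2 and WT 3 was Eno2, and the 1 pathway gene called higher was Vegfa with DESeq2, with the exact test and without the filter, and Bnip3l without WT 2 and WT 3. At the study's cutoff, members numbered 2 lower with DESeq2 (3.34% of all genes), 2 lower without the filter (3.09%) and 0 lower with limma voom (2.48%). Without WT 2 and WT 3 they numbered 3 of 31 higher (Bnip3, Ddit4 and Eno2) and 0 lower, where 3.05% of all genes were higher and 3.15% lower. There were 0 in both directions at a log2 fold change of 1. With single libraries left out they numbered 1 to 2 higher (1.18 to 2.42% of all genes) and 0 to 3 lower (2.27 to 5.37%). Pathway genes lower at the cutoff numbered 0 with limma voom, 0 without WT 2 and WT 3, 1 at a log2 fold change of 1, and 1 to 3 with single libraries left out, where 1 to 2 were higher. The difference in mean log2 CPM was 0.063 for all members and 0.098 for glycolytic enzymes without the filter, where rows with few counts enter, and 0.056 for all members and 0.323 for hypoxia targets without WT 2 and WT 3. Over single libraries left out it ran from -0.045 to 0.042 for all members, 0.013 to 0.057 for glycolytic enzymes and -0.210 to 0.079 for hypoxia targets. The sign turned for Aldoa (0.00 with upper-quartile scaling, 0.01 without the filter, 0.06 without WT 4, 0.04 without Gsdmd-/- 2, with -0.08 to 0.06 over single libraries left out) and, without WT 2 and WT 3, for Pdk1 (-0.09), P4ha2 (0.03), P4ha1 (0.16), Epas1 (0.45), Tpi1 (-0.02), Pfkm (0.05) and Angptl4 (0.04). With single libraries left out, Epas1 ran from -0.35 to 0.09 and turned without WT 2 (0.09) or Gsdmd-/- 3 (0.02). The cause was not tested.

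Libraries with the same number showed weak correlations of their deviations (0.03, 0.18, 0.04 and -0.20), and 1 of 4 WT libraries correlated best with its own number. No pairing by number was seen, but correlations this weak cannot decide whether libraries of the same number were prepared together. With the replicate number as a block, 9 genes were higher and 16 lower at an adjusted p under 0.05. At the study's cutoff 0 members and 1 pathway gene were then lower, as were 2.77% of all genes. Genes below about 3 counts per library cannot be compared at this depth.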
